A study of Solanum lycopersicum with 12 samples.

Results

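The genes described here are 7 genes for the final steps of ethylene synthesis in tomato stems, 3 ACC synthases and 4 ACC oxidases or related dioxygenases. They were taken by identifier from a table of 5346 genes that the authors deposited for stems collected at 6 h. ACC synthase turns S-adenosylmethionine into ACC (1-aminocyclopropane-1-carboxylate) and is often the limiting step of the pathway. ACC oxidase, an iron enzyme of the dioxygenase family that uses ascorbate and oxygen, turns ACC into the gas ethylene. In plant stems ethylene is known to restrain elongation, to promote radial growth and to be made after touch or bending, and in tomato it is best known for fruit ripening.

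The plants were of the tomato (Solanum lycopersicum) cultivar Ailsa Craig, 1 plant per pot, in a greenhouse with 16 h of light and 8 h of dark at about 28 °C. In the weighted groups, which the labels call DSM, a wooden clamp of 3 g hung from the top of stems 4.5 to 5 cm tall for 48 h, and control plants had no clamp. Stems were collected 6 h after the clamp was put on, per the series' design text, and 10 days after it was taken off. The sample labels instead place the first collection 6 h post treatment, so whether the clamp was still on the stem in the groups called 6 h here cannot be settled from these sources. Whole-stem RNA from 3 control and 3 weighted samples at each time gave 4 groups and 12 libraries. All groups share the cultivar and the growth conditions, and the labels use the word batch for the collection time. The labels speak of biological replicates but do not say how many plants each holds.

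Expression is given as FPKM, read fragments divided by transcript length and by the library's mapped total, which sets genes of different length on 1 scale. The read depth behind these values is unknown. Across genes, each library's log2 values correlated with the mean of its group mates at 0.967 to 0.995. Control replicates 1 and 2 at 10 days had the lowest values (0.967 and 0.971) and a median distance from their mates of 0.23 and 0.26 on the log2 scale, against 0.11 to 0.19 in the other 10 libraries, and the members' fold changes that rest on them are given with and without each of them where a fit was possible. The authors had chosen the table's genes for a difference at 6 h. At 6 h limma on log2(FPKM + 1) called 99.3% of the tested genes at an adjusted p under 0.05, so a call at 6 h sets no member apart. Chlorophyll a-b binding protein genes, laccase and caffeoyl-CoA O-methyltransferase genes, and lipid transfer protein genes, markers of green tissue, lignifying xylem and epidermis, were present in every group. The table held 0 genes under the phloem names searched.

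Of the 4 oxidases, Solyc02g036350.3 carries the name 1-aminocyclopropane-1-carboxylate oxidase in the deposited table and Solyc07g049550.3 the name ACC oxidase 4. That number is the deposited one, and the place of these genes in the numbered ACC oxidase family was not checked. Solyc02g081190.4 and Solyc12g005940.2 are named only for their Fe2OG dioxygenase domain, with the ACC oxidase reaction assigned to them. Of the synthases, Solyc02g091990.3 and Solyc03g043890.3 share 1 deposited protein match, the record of Solyc03g043890. The match of Solyc08g081550.4 is the record of Solyc08g081540, so reads of near-identical copies could be shared and the values of these 3 genes are uncertain.

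The ACC oxidase gene Solyc02g036350.3 had the largest change of the 7 at 6 h. Its level was 23.7, 13.9 and 25.4 FPKM in the control stems and 376, 423 and 409 FPKM in the weighted stems. Every weighted library was above every control library, and the mean went from 21.0 ± 6.20 to 403 ± 23.9 FPKM (SD, n = 3 per group). That is a 19.2-fold ratio of means and a change of 4.24 on the log2(FPKM + 1) scale (SE 0.21, limma adjusted p = 9.61e-05). In the stems taken at 10 days the controls held 179.6, 68.1 and 81.8 FPKM and the weighted stems 58.5, 60.9 and 28.7 FPKM. The groups did not overlap, with the weighted stems now lower, at 49.3 ± 17.9 against 109.8 ± 60.8 FPKM (SD, n = 3 per group). The log2 fold change of -1.08 (SE 0.44, 95% interval -2.13 to -0.03) did not pass after adjustment (limma adjusted p = 0.295). Control replicate 1, at 179.6 FPKM, was far above the other 5 libraries. Without it the log2 fold change was -0.66 (adjusted p = 0.313), and without control replicate 2 it was -1.35 (adjusted p = 0.224). In the authors' deposited table the log2 ratio of this gene was 4.24 at 6 h and -1.17 at 10 days.

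Solyc07g049550.3, deposited as ACC oxidase 4, had the largest change between the collection times among the tested members, in control and in weighted stems. In the control stems at 6 h it had 26.9, 23.2 and 45.4 FPKM, and in the weighted stems 87.1, 115 and 98.9 FPKM. The 2 groups did not overlap, with means of 31.8 ± 11.9 and 100.4 ± 14.0 FPKM (SD, n = 3 per group), a rise of 1.68 on the log2 scale (SE 0.24, limma adjusted p = 0.00128). At 10 days it was low in all 6 libraries, at 4.58, 1.02 and 0.61 FPKM in the control stems and 0.89, 1.27 and 0.75 FPKM in the weighted stems. The groups overlapped there, and the log2 fold change of -0.42 did not pass (95% interval -1.52 to 0.67, limma adjusted p = 0.683). It was -0.78 without control replicate 3 and also with array weights, and without control replicate 1 or 2 the gene was too low to be tested. Control replicate 1 again held the highest value.

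The dioxygenase gene Solyc02g081190.4, with the ACC oxidase reaction, was the most abundant of the 7 in every group by its mean. Control stems at 6 h had 199.6, 197 and 229 FPKM and weighted stems 582, 660.2 and 693 FPKM. The lowest weighted library was well above the highest control library, and the mean rose 3.09-fold, from 209 ± 17.9 to 645 ± 57.2 FPKM (n = 3 per group, SD). On the log2 scale this was a rise of 1.62 (SE 0.10, limma adjusted p = 0.000136). The control stems at 10 days had 186, 104 and 131 FPKM and the weighted stems 132, 126 and 146 FPKM. The means of 140.1 ± 41.8 and 135 ± 10.7 FPKM overlapped, with a log2 fold change of -0.02 (95% interval -0.53 to 0.49, limma adjusted p = 0.971). Its sign turned with the processing and without control replicate 1, where it was 0.20 (adjusted p = 0.432), against -0.21 without control replicate 2.

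The remaining dioxygenase gene, Solyc12g005940.2, was expressed at a low level. It had 1.53, 1.35 and 1.76 FPKM in the control stems at 6 h and 4.04, 6.49 and 1.95 FPKM in the weighted stems. Weighted replicate 3 was just above the highest control library, so the groups did not overlap but came close. The log2 fold change was 0.92 (SE 0.31, limma adjusted p = 0.0212). It no longer passed when control replicate 1 was left out (change of 0.92, limma adjusted p = 0.0548) or when weighted replicate 1 was (0.89, adjusted p = 0.0535). Without weighted replicate 2, the highest library, the change was 0.60 (adjusted p = 0.0444), and it was 1.27 without weighted replicate 3. Its values at 10 days were 2.39, 0.33 and 0.16 FPKM in the control stems and 0.61, 0.56 and 0.25 FPKM in the weighted stems, too low for the test, which asked for at least 1 FPKM in at least 3 libraries.

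**Figure D1:**
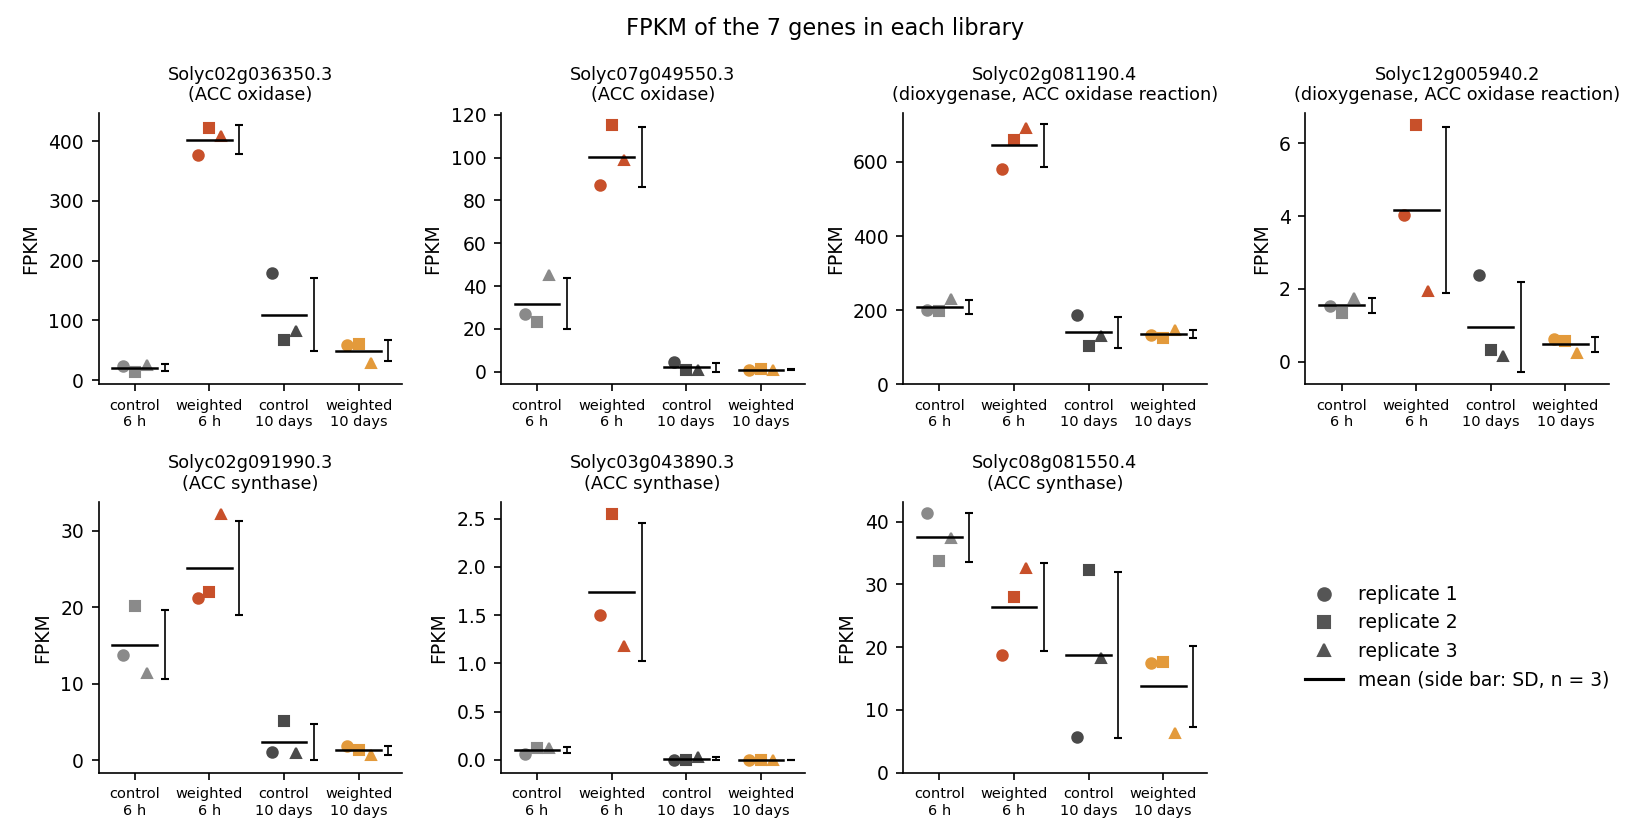
FPKM (vertical axis, linear, a separate scale for each gene) of the 7 genes in the 12 libraries, with control and weighted stems at 6 h and 10 days on the horizontal axis. Symbols are libraries, horizontal lines group means and side bars the SD (n = 3). Solyc02g036350.3 stands at 376 to 423 FPKM in the weighted stems at 6 h and at 13.9 to 25.4 FPKM in their controls, while Solyc08g081550.4 is lower in the weighted stems at 6 h.

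The 3 ACC synthase genes did not move one way at 6 h. Solyc02g091990.3 had 13.7, 20.1 and 11.4 FPKM in the control stems and 21.2, 22.0 and 32.2 FPKM in the weighted stems. The lowest weighted library was only slightly above the highest control library, and the mean went from 15.1 ± 4.52 to 25.1 ± 6.15 FPKM (SD, n = 3 per group). The rise of 0.71 on the log2 scale (SE 0.23, limma adjusted p = 0.0195) did not pass when control replicate 1 or 3 was left out (adjusted p = 0.0593 and 0.0613) or without weighted replicate 3 (0.0604), where it was 0.52 to 0.66. With the spread pooled over all 12 libraries its adjusted p was 0.111. At 10 days it was at 1.03, 5.18 and 0.98 FPKM in the control stems and 1.83, 1.32 and 0.72 FPKM in the weighted stems. The log2 fold change was -0.38 (95% interval -1.51 to 0.75, limma adjusted p = 0.726), -0.64 without control replicate 1 and 0.16 without control replicate 2, the highest of these 6 libraries.

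The synthase gene Solyc03g043890.3 was close to the bottom of the scale in control stems. It had 0.06, 0.12 and 0.12 FPKM in the control stems at 6 h and 1.5, 2.55 and 1.18 FPKM in the weighted stems. All 3 weighted libraries were above all 3 controls, with a 17.4-fold ratio of means of 1.74 ± 0.717 to 0.10 ± 0.035 FPKM (SD, n = 3 per group). On the log2(FPKM + 1) scale, which understates the change of so low a gene, the rise was 1.29 (SE 0.18, limma adjusted p = 0.00127), and with 0.1 FPKM added in place of 1 it was 3.15 (adjusted p = 0.000599). Only the weighted libraries reached 1 FPKM, so the gene entered this test only because it was high there. These p-values are therefore no support for the rise. In the authors' deposited table the log2 ratio was 4.09. At 10 days the gene was listed at 0 in 5 of the 6 libraries and at 0.03 FPKM in control replicate 3. No test was made there and no fold is given.

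The synthase gene Solyc08g081550.4 was the 1 member that fell at 6 h. Its control libraries had 41.4, 33.7 and 37.4 FPKM and its weighted libraries 18.7, 27.9 and 32.5 FPKM. The highest weighted library was just below the lowest control library, and the mean went from 37.5 ± 3.87 to 26.4 ± 7.03 FPKM (n = 3 per group, SD). It fell by 0.52 on the log2 scale (SE 0.20, limma adjusted p = 0.0325). The call ended when control replicate 1 or 3 was left out (adjusted p = 0.101 and 0.0709), when weighted replicate 1 was (0.0657, at a change of -0.30) and with the spread pooled over all 12 libraries (0.342). Control stems at 10 days ranged widely, at 5.73, 32.2 and 18.2 FPKM, and the weighted stems had 17.5, 17.6 and 6.32 FPKM. The log2 fold change of -0.26 (95% interval -1.80 to 1.28, limma adjusted p = 0.872) was -0.90 without control replicate 1 and 0.26 without control replicate 2.

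In all, limma called 7 of 7 members at 6 h, 6 higher and 1 lower, beside 99.3% of all genes tested (48.3% higher and 51% lower). The members' median log2 fold change was 1.29, against -0.25 over all tested genes. The 7 members did not overlap between groups at 6 h, as was the case for 95.5% of the tested genes. Solyc02g036350.3, Solyc07g049550.3 and Solyc02g081190.4 passed in every fit with 1 library left out. Solyc03g043890.3 passed whichever control library was left out. It could not be tested without any 1 of the weighted libraries, since only those reached 1 FPKM, so its call was not checked against their loss.

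At 10 days 0 of the 5 tested members passed, beside 0% of the 4661 genes tested. At an unadjusted p under 0.05 limma gave 1 member, Solyc02g036350.3, and 767 genes in all (16.5%), and the smallest adjusted p of any gene was 0.0586. With the spread pooled over all 12 libraries 216 genes passed at 10 days, and still 0 members. Of the 7 members 1 had groups that did not overlap at 10 days, with the weighted stems lower, beside 23.4% of the tested genes (9.2% lower). The members' median log2 fold change was -0.38, against 0.04 over all tested genes. The table that the authors deposited for the comparison at 10 days, with 1146 genes, held 0 of the 7.

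**Figure D2:**
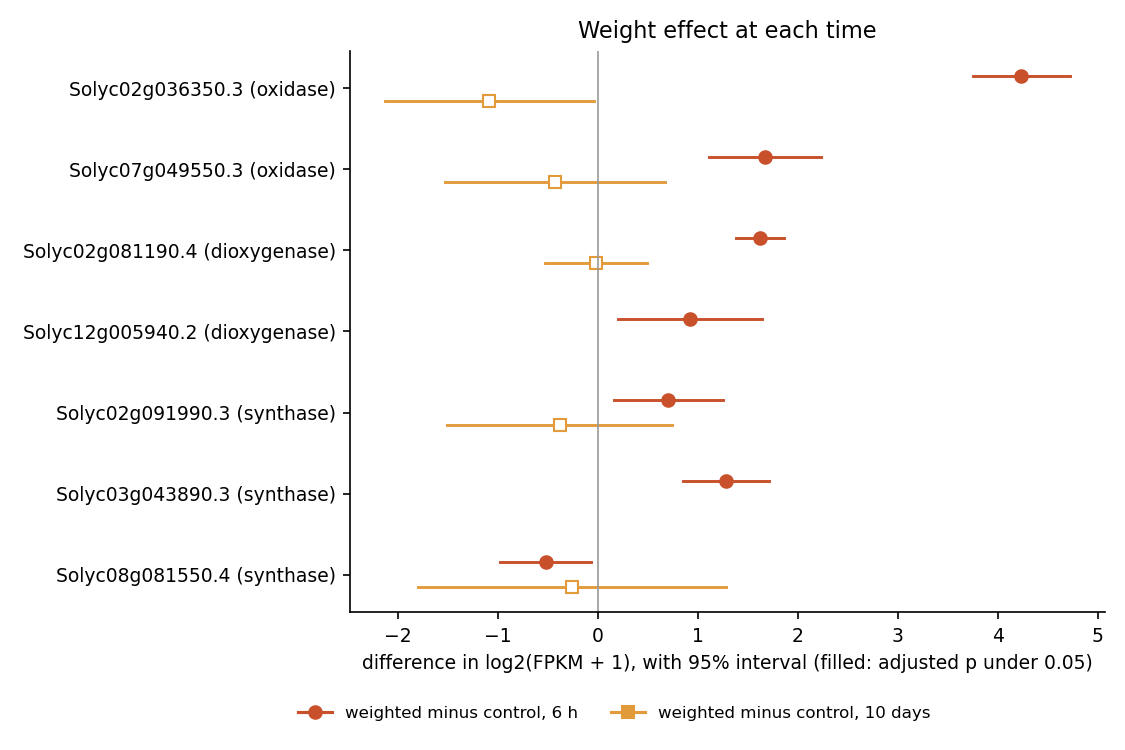
Difference between weighted and control stems in log2(FPKM + 1) (horizontal axis) for each gene (vertical axis), at 6 h (circles) and at 10 days (squares), with 95% intervals from limma and n = 3 libraries per group. Filled symbols have an adjusted p under 0.05. At 6 h the 7 values run from -0.52 to 4.24, and at 10 days the 5 tested values run from -1.08 to -0.02 with 0 filled.

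Markers of other tissues moved with the weight at 6 h, when 48.3% of all tested genes were called higher and 51% lower. Of 17 chlorophyll a-b binding protein genes, 17 fell, with a summed level of 3672 to 5717 FPKM in the control libraries and 1587 to 1864 FPKM in the weighted libraries. Of 11 xylem genes 10 were tested, of which 1 rose and 9 fell (summed level 347 to 498 against 185 to 232 FPKM). Of 7 epidermis genes 6 were tested and went 3 up and 3 down (625 to 719 against 548 to 569.9 FPKM). No marker found was at 0 in any library. At 10 days 0 genes of the 3 lists passed, beside 0% of all tested genes. The summed xylem level was nevertheless 523 to 649 FPKM in control and 729 to 766 FPKM in weighted libraries. The part of tissue make-up in the members' changes was not tested. In whole stems fewer cells of a type and less RNA per cell cannot be told apart.

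Whether the weight effect differed between the times was tested by the interaction, the effect at 10 days minus that at 6 h, over all 12 libraries. It passed for 4 of 7 members, all with a lower effect at 10 days, beside 46.8% of all tested genes (24.9% higher and 21.9% lower). The 6 h effect for which the table's genes were chosen is part of this contrast. Of the called genes 53.2% were higher, and 65.4% with library totals equalised. The interaction was -5.32 for Solyc02g036350.3 (SE 0.53, limma adjusted p = 0.000204) and -2.10 for Solyc07g049550.3 (SE 0.56, adjusted p = 0.0135). It was -1.64 for Solyc02g081190.4 (SE 0.25, adjusted p = 0.00145) and -1.30 for Solyc03g043890.3 (SE 0.21, adjusted p = 0.0018), a value that depends on the pseudocount and was -3.28 with 0.1 FPKM added in place of 1. These 4 passed also without control replicate 1 or 2 at 10 days, with values of -4.90 and -5.59, -1.56 and -2.29, -1.42 and -1.84, and -1.31 in both cases. Solyc03g043890.3 entered this test only through the weighted libraries at 6 h, so its p-value is no support for a difference. The interaction did not pass for Solyc12g005940.2 (-1.17, adjusted p = 0.103), Solyc02g091990.3 (-1.09, adjusted p = 0.13) or Solyc08g081550.4 (0.26, 95% interval -1.36 to 1.88, adjusted p = 0.773). For Solyc12g005940.2 it was -0.68 without control replicate 1 and -1.36 without control replicate 2 at 10 days, and it passed without weighted replicate 3 at 6 h (-1.52, limma adjusted p = 0.0454). For Solyc02g091990.3 it was -1.35 and -0.55 without control replicates 1 and 2 in turn, and for Solyc08g081550.4 it was -0.38 and 0.78.

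Between the collections, the control stems differed as well. Plant age, the day of collection and anything else that changed with the label's batch cannot be told apart in these contrasts, and the comparisons below share libraries with those above. Solyc02g036350.3 was the 1 member that was higher in the older control stems, by 2.24 on the log2 scale (SE 0.40, limma adjusted p = 0.00258), a 5.23-fold ratio of means. Without control replicate 1 at 10 days the rise was 1.83 (adjusted p = 0.00121), and without control replicate 2 it was 2.52 (adjusted p = 0.00235). Solyc07g049550.3 fell by 3.58 on the log2 scale (SE 0.49, limma adjusted p = 0.000848) and the synthase gene Solyc02g091990.3 fell by 2.43 (SE 0.47, adjusted p = 0.00369). Without control replicates 1 and 2 at 10 days in turn, limma gave -4.13 and -3.39 for Solyc07g049550.3 and -2.17 and -2.97 for Solyc02g091990.3, and the 4 values passed. Both genes reached 1 FPKM in fewer than 3 control libraries at 10 days. They met the filter only with the control libraries at 6 h, where they were high, so no support is drawn from their p-values. Solyc02g081190.4 fell by 0.61 (adjusted p = 0.041), a call that held without control replicate 1 at 10 days (-0.83, adjusted p = 0.0030) and ended when any other 1 of the 6 control libraries was left out (0.0798 to 0.121), with a value of -0.41 without control replicate 2 at 10 days.

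Neither Solyc12g005940.2 (-0.55, limma adjusted p = 0.255) nor Solyc08g081550.4 (-1.24, adjusted p = 0.0806) passed in control stems. Solyc12g005940.2 passed without control replicate 1 at 10 days (-1.03, adjusted p = 0.00104) and was at -0.36 without control replicate 2. Without control replicate 1 its remaining control libraries at 10 days, at 0.33 and 0.16 FPKM, were below 1 FPKM. It was then tested only because it was higher at 6 h, so the filter set the direction of that call. Solyc08g081550.4 was at -0.60 without control replicate 1 and passed without control replicate 2 (-1.75, adjusted p = 0.0126). In all 4 of the 6 tested members passed, 1 higher and 3 lower, beside 65.9% of all tested genes (27.2% higher and 38.7% lower). Of the 7 members 6 had control groups that did not overlap between the times, 1 higher and 5 lower, beside 72.4% of the tested genes (30.3% higher and 42.2% lower). Of the called genes 41.3% were higher, and 51.5% after quantile normalization.

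In the weighted stems 6 of 7 members fell between 6 h and 10 days, beside 79.3% of all tested genes (32.1% higher and 47.2% lower). On the log2 scale Solyc07g049550.3 fell by 5.68 (SE 0.15, limma adjusted p = 4.08e-07), Solyc02g091990.3 fell by 3.52 (SE 0.23) and Solyc02g036350.3 fell by 3.08 (SE 0.27). Solyc02g081190.4, Solyc12g005940.2 and Solyc03g043890.3 fell by 2.25, 1.72 and 1.42. With 0.1 FPKM added in place of 1, the values of Solyc12g005940.2 and Solyc03g043890.3 were -2.80 and -4.14. Each of these genes was below 1 FPKM in every weighted library at 10 days. They were tested only because they were higher at 6 h, so the filter set the direction of their calls. Solyc07g049550.3 and Solyc02g091990.3 reached 1 FPKM in fewer than 3 weighted libraries at 10 days. They met the filter only with the libraries at 6 h, where they were high, so no support is drawn from their p-values. Solyc08g081550.4 was at -0.98 and just missed (adjusted p = 0.0511). It passed when weighted replicate 1 at 6 h or any weighted replicate at 10 days was left out (adjusted p = 0.0410 to 0.0494). All 7 members had weighted libraries at 10 days below those at 6 h without overlap, beside 82.1% of the tested genes (33.6% higher and 48.5% lower). The members' median was -2.25, against -0.24 over all tested genes.

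**Figure D3:**
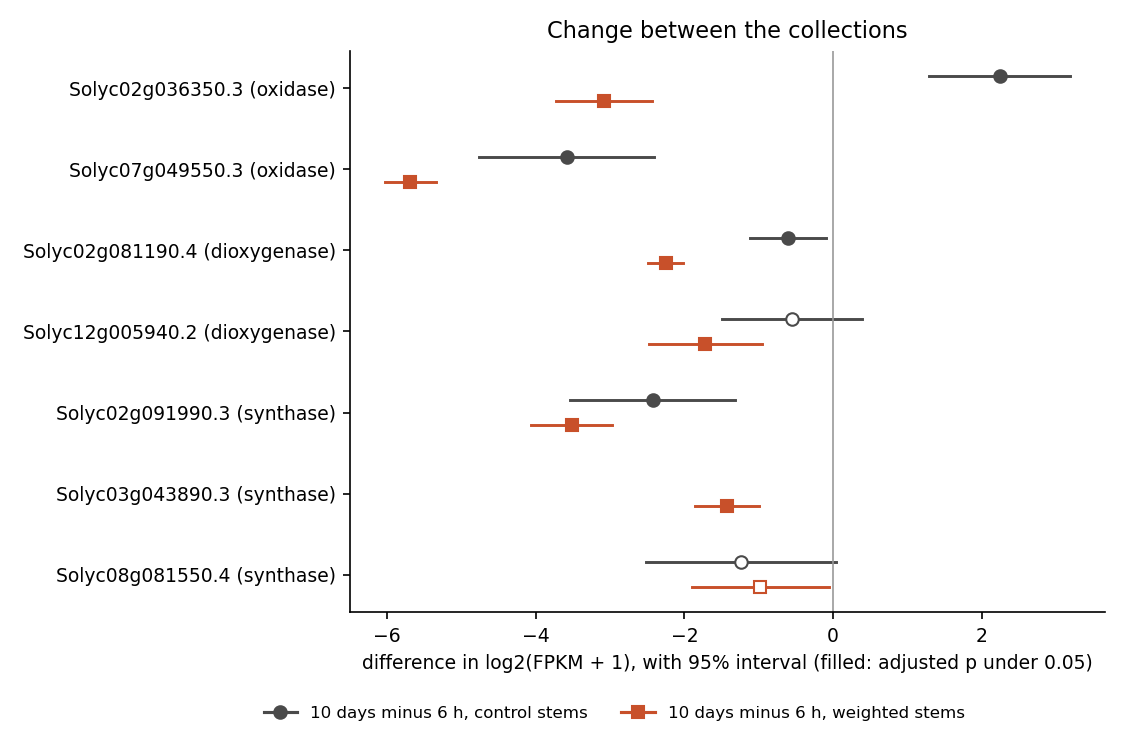
Difference between 10 days and 6 h in log2(FPKM + 1) (horizontal axis) for each gene (vertical axis), in control stems (circles) and weighted stems (squares), with 95% intervals from limma and n = 3 libraries per group. Filled symbols have an adjusted p under 0.05. Solyc02g036350.3 lies at 2.24 in control stems and at -3.08 in weighted stems, and every other plotted value is below 0.

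The make-up of the family shifted with weight and time. The order of levels in control stems at 6 h was led by Solyc02g081190.4, followed by Solyc08g081550.4, Solyc07g049550.3, Solyc02g036350.3 and Solyc02g091990.3, whose neighbours overlapped, and then by Solyc12g005940.2 and Solyc03g043890.3, which stood apart. In weighted stems at 6 h Solyc02g036350.3 came next after Solyc02g081190.4, followed by Solyc07g049550.3, each apart from its neighbours. Solyc08g081550.4 and Solyc02g091990.3 overlapped there, as did Solyc12g005940.2 and Solyc03g043890.3. At 10 days Solyc02g081190.4 and Solyc02g036350.3 led in both groups, overlapping in the control stems and apart in the weighted stems, and Solyc08g081550.4 came next.

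The 4 oxidase and dioxygenase genes summed to 263 ± 34.5 FPKM in control stems and 1152 ± 89.4 FPKM in weighted stems at 6 h. At 10 days the sums were 253 ± 105 FPKM in control stems and 185 ± 8.20 FPKM in weighted stems (SD, n = 3 per group). Solyc02g036350.3 made up 7.91 ± 1.81% of this sum in control stems at 6 h and 35.0 ± 0.92% in weighted stems. At 10 days its share was 42.0 ± 5.46% in control stems and 26.4 ± 8.79% in weighted stems, where replicate 3 had 16.3% and the others 30.5% and 32.3%. Solyc07g049550.3 made up 11.9 ± 2.78% and 8.69 ± 0.744% of the sum at 6 h but 0.702 ± 0.482% and 0.522 ± 0.134% at 10 days, in control and weighted stems in turn.

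The 3 synthase genes summed to 52.7 ± 3.32 FPKM in control stems and 53.3 ± 12.3 FPKM in weighted stems at 6 h. The sums overlapped between these groups, at 48.9 to 55.2 and 41.4 to 65.9 FPKM, while the shares within them did not. Solyc08g081550.4 made up 71.3 ± 7.70% of the synthase sum in control stems and 49.3 ± 4.0% in weighted stems, and Solyc02g091990.3 28.5 ± 7.68% and 47.3 ± 4.8%. At 10 days the sums were 21.1 ± 15.4 and 15.1 ± 6.96 FPKM in control and weighted stems, of which Solyc08g081550.4 made up 88.6 ± 5.41% and 91.1 ± 1.70% (SD, n = 3 per group). Control replicate 1 at 10 days had the highest oxidase sum (372 FPKM) and the lowest synthase sum (6.76 FPKM) of its group.

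**Figure D4:**
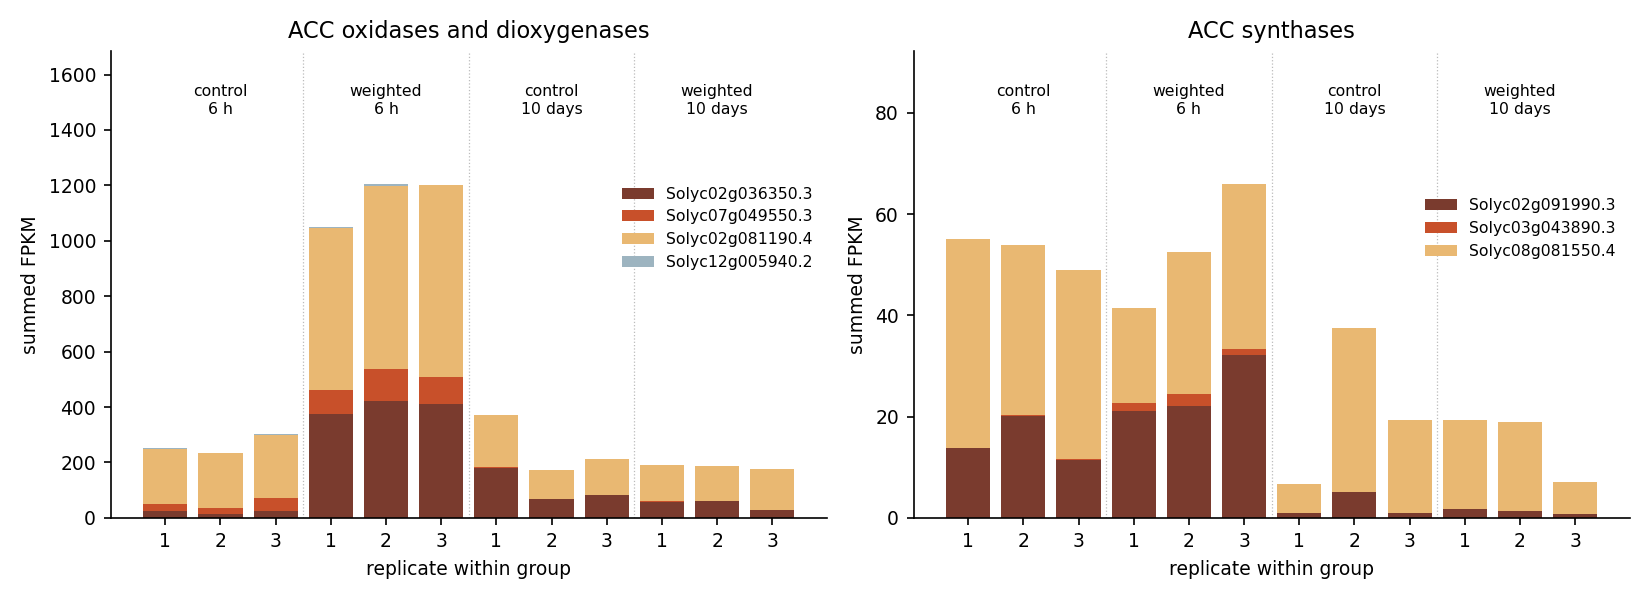
Summed FPKM (vertical axis, from 0) of the 4 oxidase and dioxygenase genes (left) and the 3 synthase genes (right) in each of the 12 libraries, with 1 bar per library and 1 colour per gene within each panel. The oxidase sum is 1049 to 1204 FPKM in the weighted stems at 6 h and 173 to 372 FPKM in the other libraries, while the synthase sums of control and weighted stems at 6 h overlap.

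Across the 12 libraries, which share 4 groups, the members' log2(FPKM + 1) values correlated at 0.93 for Solyc02g081190.4 with Solyc03g043890.3 and at 0.92 for Solyc07g049550.3 with Solyc02g091990.3. Solyc02g036350.3 and Solyc08g081550.4 were the pair with the lowest value, at -0.13. Among 4500 other genes with a name or domain, the gene most like Solyc02g036350.3 over the 12 libraries was an elongation factor 1-alpha gene (Solyc11g069700.2, Pearson r = 0.96), ahead of an allantoinase gene (Solyc02g078400.3, 0.94), for an enzyme of purine breakdown, and a tonoplast aquaporin gene (Solyc06g075650.3, 0.94). The allantoinase gene had mean levels of 1.92 and 11.2 FPKM in control and weighted stems at 6 h and 5.55 and 4.20 FPKM at 10 days.

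The genes most like Solyc07g049550.3 were Solyc12g096700.2, of unknown function, a LONGIFOLIA 2-like gene (Solyc02g089050.4) and a ribosomal protein L34Ae gene (Solyc05g007560.3), each at r = 0.99. For Solyc02g081190.4 they were genes for a cationic amino acid transporter (Solyc02g070280.3), a mitochondrial import subunit (Solyc06g072600.3) and a beta-glucosidase (Solyc06g073740.3), each at r = 0.99. For Solyc12g005940.2 they were an alginate lyase domain gene (Solyc11g005480.2, 0.93), the uncharacterised Solyc03g025740.4 (0.92) and an ECERIFERUM 1-like gene (Solyc01g088400.4, 0.92), of a family for surface wax. 

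Among the synthases, Solyc02g091990.3 was most like the uncharacterised Solyc01g097830.2, a calcium-transporting ATPase gene (Solyc02g092460.3) and a response regulator domain gene (Solyc02g071220.3), each at r = 0.98. Solyc03g043890.3 was most like 2 glutaredoxin domain genes, Solyc04g011840.1 (0.99) and Solyc04g011830.1 (0.97), and an auxin-responsive protein gene (Solyc05g008850.4, 0.97). The glutaredoxin gene Solyc04g011840.1 had 0.62 and 12.1 FPKM in control and weighted stems at 6 h and was listed at 0 at 10 days. Solyc08g081550.4 was most like genes with a lipase (Solyc06g060870.1, 0.97), GRAS (Solyc12g005340.3, 0.96) and transposase-type domain (Solyc12g009000.1, 0.96).

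The table held 4 further genes under ACC synthase or ACC oxidase names or reactions. Solyc09g089580.4, an ACC oxidase homolog also named Protein E8, which is known as a ripening gene of tomato fruit, had 8.83, 12.1 and 10.4 FPKM in control stems at 6 h and 38.0, 17.3 and 28.6 FPKM in weighted stems. It rose by 1.28 on the log2 scale (SE 0.26, limma adjusted p = 0.00432). At 10 days it stood at 197.5, 204 and 92.4 FPKM in control stems and 273, 275 and 106 FPKM in weighted stems, a difference that did not pass (0.36, SE 0.47, adjusted p = 0.738). It was higher in the older control stems by 3.78 on the log2 scale (SE 0.32, adjusted p = 0.000119), and higher in the older weighted stems by 2.86 (SE 0.43, adjusted p = 0.000623), where 6 of the 7 members fell. The homolog Solyc09g089740.3 rose at 6 h by 1.12 (SE 0.13, adjusted p = 0.000693), from 0.657 ± 0.170 to 2.61 ± 0.414 FPKM (SD, n = 3 per group). At 6 h only its weighted libraries reached 1 FPKM, so it was tested only because it was high there.

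The remaining pair was too low for the test. Solyc04g077410.4, an aminotransferase-domain gene with the ACC synthase reaction, had 0.03, 0 and 0 FPKM in control stems and 0.64, 0.36 and 1.04 FPKM in weighted stems at 6 h. It was at 0.02 to 0.05 FPKM in control stems at 10 days and at 0.08 to 0.19 FPKM in weighted stems. Solyc11g010400.3, named as an ACC oxidase, had 0.13 to 0.17 FPKM in control stems at 6 h and was listed at 0 in all 3 weighted libraries.

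The methionine cycle supplies S-adenosylmethionine, the substrate of ACC synthase, and takes back its by-product methylthioadenosine. Of 7 genes found by name, 5 could be read and tested, and at 6 h 1 rose and 4 fell, at a median log2 fold change of -0.25, equal to the -0.25 over all tested genes. Of all tested genes 48.3% were called higher and 51% lower at 6 h, and these shares stand beside each list below. A spermidine synthase gene (Solyc03g007240.3), whose product draws on the same pool, fell by 0.89 (63.4 to 33.7 FPKM). The dioxygenase of the methionine salvage pathway (Solyc09g082630.3) fell by 0.71 (66.7 to 40.7 FPKM), and a methylthioribose kinase gene (Solyc01g107550.3) rose by 0.43 (53.6 to 72.6 FPKM). The digits of both S-adenosylmethionine synthase genes could not be read with certainty, and they are not reported. The words searched for factors that control ACC synthase protein, such as ETO1, found 0 genes.

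Downstream of the gas, of 8 genes for receptors and their partners 6 rose and 2 fell at 6 h, beside 48.3% higher and 51% lower of all tested genes. Green ripe-like 1 (Solyc08g065320.3), of a family that acts with the receptors, rose by 1.24 (SE 0.14, limma adjusted p = 0.000627). A receptor gene (Solyc06g053710.3) rose by 1.18 and the response sensor gene Solyc09g075440.4 by 1.09, while a CTR1 kinase gene (Solyc04g076480.3) fell by 0.44 and the receptor gene Solyc07g056580.3 by 0.37. The CTR1 gene, at 1.21 FPKM in control and 0.627 FPKM in weighted stems by its means, reached 1 FPKM only in control libraries. The receptor gene Solyc09g089610.3, among the 6 that rose, reached it only in weighted libraries (means 0.447 and 1.98 FPKM). The filter therefore set the direction of these calls. Receptors and CTR1 hold the pathway off when ethylene is absent. Genes of EIN3-binding F-box proteins, which mark the pathway's transcription factors for breakdown, rose by 2.09 (Solyc07g008250.3) and 1.43 (Solyc12g009560.2).

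Of 5 genes found by the words for ethylene response factor or ethylene-responsive, 3 rose and 2 fell at 6 h. Of the 2 that fell, Solyc05g012210.4 is deposited under the name of an uncharacterised protein. Ethylene response factor 4 (Solyc05g052030.1) rose by 0.95 and ethylene response factor 1 (Solyc06g065820.3) by 0.64, and the largest rise, of 1.26, was in a proteinase inhibitor gene (Solyc08g080630.4), which is no transcription factor. At 6 h only the weighted libraries of this inhibitor gene reached 1 FPKM (means 0.553 FPKM in control and 2.92 FPKM in weighted stems). It was tested only because it was high there, so the filter set the direction of its call. Of 10 genes named as MAP kinase, MAP kinase kinase or MAP kinase kinase kinase 9 were tested, 3 rose and 6 fell. The largest changes were in the MAP kinase kinase kinase genes YODA (Solyc02g090430.3, -0.94) and NPK1 (Solyc01g079750.3, -0.88). The MAP kinase gene Solyc07g062080.4 came next (-0.83). Some plant MAP kinases are known to stabilise ACC synthase. Over all these lists 36 genes were found and 31 tested, of which 17 rose and 14 fell at 6 h, at a median of 0.39. Of all tested genes 48.3% were higher and 51% lower there, at a median of -0.25. The counts of the lists include the genes named above that met the filter only through the group where they were high. At 10 days 0 of 28 passed, as for the members and for 0% of all tested genes. The interaction passed for 17 of 31, 9 higher and 8 lower, beside 46.8% of all tested genes (24.9% higher and 21.9% lower).

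**Figure D5:**
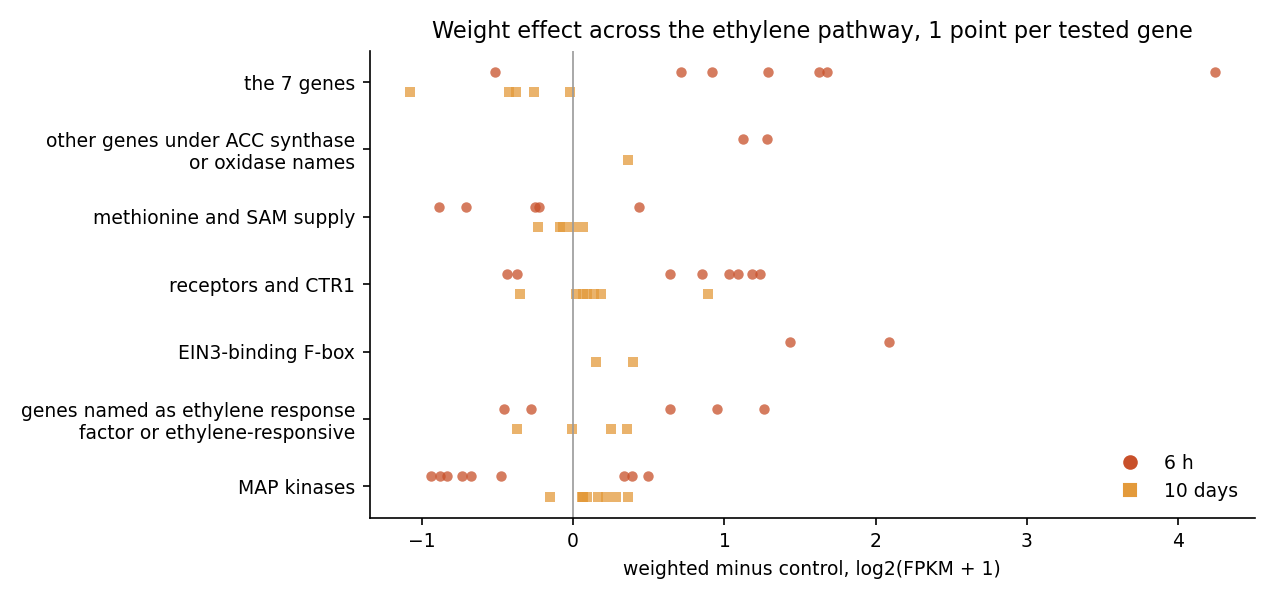
Difference between weighted and control stems in log2(FPKM + 1) (horizontal axis) for the tested genes of each ethylene list (vertical axis), at 6 h (circles) and 10 days (squares), 1 point per gene. At 6 h the 7 genes reach 4.24 and the EIN3-binding F-box genes 1.43 and 2.09, and at 10 days 0 of the plotted points passed the test.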

How the data were processed

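Reads were aligned by the authors with HISAT to a reference genome and with Bowtie2 to reference genes, per the labels' protocols; the sources used here give no versions, build, strand setting or treatment of shared reads. The authors deposited FPKM values per library and log2 ratios, in 1 table per collection time. The text of the 6 h table is damaged (the point separates columns and a tab marks decimals), and large values, written with a further point, run into their neighbour. Of its 5346 genes 5256 were read as they stand and 90 were left out. Both tables held 4320 values in common, of which 60 differed by more than 0.005 FPKM. A zero lost after the decimal mark was taken as the reason, which was not checked value by value. The ratios of means correlated with the authors' log2 ratios at 0.9998 over 5235 genes. All 7 members were read as they stand. Values mapped to no sample numbered 0. Identifiers matched 0 entries of the reference gene table, so no positions or sequences are given.

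Values were analysed as log2(FPKM + 1) with limma 3.58.1 (two-sided, empirical Bayes with a mean-variance trend) under R 4.3.3, keeping genes that reached 1 FPKM or more in 3 or more libraries of the comparison, with Benjamini-Hochberg adjustment over all of them and 0.05 as the threshold. Each of the 4 comparisons between 2 groups was fitted on their 6 libraries alone, and the interaction on 12. The smallest p of an exact permutation test of 3 against 3 is 0.1, which is why limma was used. The fits were tested on simulated data. Alternatives were pseudocounts of 0.1 and 0.5, other filters, 3 other scalings, array weights, a robust fit, a replicate block, all libraries in 1 fit and each library left out in turn. Replicates are samples the labels list separately. The p-values set a group difference against the spread between them, moderated by a trend over all genes. Whether that spread is between single plants or pools is not given. Replicate numbers did not pair the samples: of 12 same-number pairs 2 correlated above 0.1.

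The members and gene lists were chosen with earlier results of these data known. All 7 members are named, then up to 3 called genes per list by absolute log2 fold change at 6 h, the further genes under ACC synthase or oxidase names, and the 3 genes most correlated with each member; the other receptor and CTR1 genes that fell were named after their values were seen. Figures were drawn with matplotlib 3.10.9 from tables made with pandas 2.3.3 and numpy 2.4.6 in Python 3.11.15.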

Additional observations from a re-analysis of the deposited data

Results flagged for a closer look

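The weight effect differed between 6 h and 10 days, by the interaction test in limma, in 4 of the 7 genes. On the log2 scale the effect at 10 days minus that at 6 h was -5.32 for Solyc02g036350.3, -2.10 for Solyc07g049550.3, -1.64 for Solyc02g081190.4 and -1.30 for Solyc03g043890.3. The corresponding share of all tested genes was 46.8%, and the genes of the table had been chosen for their effect at 6 h. For Solyc02g036350.3 the control stems rose between the collections while the weighted stems fell. Solyc03g043890.3 was at or near 0 at 10 days in both groups, and its value was -3.28 with a pseudocount of 0.1 in place of 1. It met the filter only through the weighted libraries at 6 h, so its call is no support for a difference.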

How the results depend on the processing

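Counts of members called moved by more than 1.5 times in 1 comparison, at 6 h. There 7 of 7 tested became 4 of 7 without control replicate 1 and 4 of 6 without weighted replicate 1. Over fits with 1 library left out the range was 4 to 7. With all 12 libraries in the fit 5 of 7 tested members passed. Over genes of 5 FPKM or more 5 of 5 passed, so no tested member lost its call there. The ranges with 1 library left out were 3 to 4 for the interaction, 3 to 5 and 4 to 7 for control and weighted stems between the times, and 0 at 10 days. In some of these fits fewer members could be tested. With the replicate number as a block the counts were 6, 0, 4, 3 and 6, and the block ended the calls of Solyc08g081550.4 at 6 h (adjusted p = 0.0512) and Solyc02g081190.4 between the times in control stems (0.0518). Same-number samples did not as a rule deviate together from their group means (r from -0.45 to 0.55, and 1 library correlated best with its own number). At 10 days some samples of different number did. Weighted replicate 1 with control replicate 2 was at 0.55, and weighted replicate 3 with control replicate 2 at -0.63. The main fits did not model this.

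Among single genes 549 alternative values kept direction and side of the threshold, 20 lost the call, 9 gained it and 9 turned sign, and no value that turned passed the test. At 10 days Solyc02g081190.4 turned to 0.011 with library totals equalised and 0.030 after quantile normalization, and ranged from -0.21 to 0.20 with 1 library left out, above 0 without control replicate 1 or weighted replicate 2. Solyc08g081550.4 turned to 0.43 with array weights and ranged from -0.90 to 0.26, above 0 without control replicate 2 or weighted replicate 3. Its interaction ranged from -0.38 (without control replicate 1 at 10 days) to 0.78. Solyc02g091990.3 ranged from -0.66 to 0.16, above 0 without control replicate 2. The cause was not tested. Solyc02g081190.4 lost its call between the times in control stems also with library totals equalised, quantile normalization and array weights (adjusted p = 0.0556, 0.0545 and 0.0987). With array weights Solyc08g081550.4 passed between the times in control and weighted stems (0.0261 and 0.0467).

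Over all genes, the interaction called 2355, and 3719 with array weights. At 10 days 0 genes passed, and 5 to 8 with median ratios, a filter at 5 FPKM, quantile normalization or array weights, 2 without control replicate 2, and 216 with all 12 libraries in the fit. Equalised totals moved the median of all genes in the interaction from 0.05 to 0.16, and in weighted stems between the times the scalings moved it from -0.24 to between -0.08 and -0.04. Of the unread genes 83 had several readings, and each was included at the reading nearest the authors' log2 ratios. This setting, chosen after seeing the data, changed no call of a member. The 6 genes with no reading and the 1 against the authors' ratio stayed out. Leaving regrouped genes out is the main setting, and the 10 day table held no member and gave no value. A pseudocount of 0.1 enlarged the changes of the lowest genes, such as the interaction of Solyc03g043890.3 (-3.28 instead of -1.30), and array weights gave -0.44 and -0.45 for the interactions of Solyc12g005940.2 and Solyc02g091990.3. Depth is unknown, so the counting error of low values could not be estimated.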
